A study of Mus musculus with 2 samples.

Results

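Cathepsins are peptidases that work mainly in the acid interior of endosomes and lysosomes, and legumain is the asparaginyl endopeptidase of the same compartment. The 10 genes described here were taken by symbol from both libraries: Ctsa, Ctsb, Ctsc, Ctsd, Ctsh, Ctsk, Ctsl, Ctss, Ctsz and Lgmn, 10 of 55450 gene rows. The cells came from the aortas of Apoe-/- mice, 12 weeks of age, in which angiotensin II (Ang II), a peptide that raises blood pressure, had induced aneurysms of the abdominal aorta; the tissue was dissociated with enzymes. Loss of apolipoprotein E raises blood cholesterol, and both groups carry it and both received Ang II. One library is from the DMSO (solvent) arm and the other from the inhibitor arm, whose compound and dose the labels leave out. Each group is 1 library, the labels do not say how many mice it holds, and so no difference between the libraries has a replicate check.

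As background, the members differ in chemistry and in order of action. Ctsd is an aspartic endopeptidase and Ctsa a serine carboxypeptidase that also stabilises partner hydrolases. Ctsb, Ctsl, Ctss and Ctsk are cysteine endopeptidases. Ctss trims the invariant chain in antigen-presenting cells, Ctsl does so in thymic epithelium, and Ctsk is the collagenase of osteoclasts. Ctsc, Ctsh and Ctsz are cysteine exopeptidases, and Ctsc activates the granule serine proteases of mast cells, neutrophils and cytotoxic lymphocytes. Lgmn cleaves after asparagine and processes other cathepsins. In the aneurysm wall the secreted forms of the elastolytic members are known for breakdown of elastin and collagen.

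After filtering, 8411 cells of the DMSO library and 7417 of the inhibitor library remained, with medians of 7935 and 8991 unique molecular identifiers (UMIs, counts of distinct transcript molecules) per cell. Cell types were rebuilt by clustering and named "-like" from marker genes, with the 10 members and the related genes below kept out of the clustering. Levels are UMIs of a gene per 1000000 UMIs of the class in one library (CPM). They are compared between cells for 1 gene and not between genes, apart from sums over the 10 members. Doublet removal needed a threshold carried over from the inhibitor library, and 16 barcodes occurred in both libraries. Macrophage-like cells numbered 1855 in the DMSO and 732 in the inhibitor library, and smooth muscle-like cells 747 and 3074, so the libraries differ widely in makeup. Intervals are exact 95% intervals that cover counting error only. PCR duplicates are removed by the UMI, but cells of one library are not replicates.

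Relative to all RNA, the family was highest in macrophages. The 10 members together made up 1.99% of all UMIs of macrophage-like cells in the DMSO library and 1.58% in the inhibitor library. Such sums weigh abundant genes most: of the member UMIs of these DMSO cells, Ctsb held 32.3%, Ctsd 18.0% and Ctss 16.7%. In fibroblast-like cells the 10 members made up 0.537% and 0.532%, and in smooth muscle-like cells 0.251% and 0.173%. In each library 8 of 10 members were highest in macrophage-like cells among the named cell types, 10 types in the DMSO and 9 in the inhibitor library. The exceptions in both were Ctsk and Ctsl, which were highest in fibroblast-like cells. Counting intervals of the macrophage-like levels were at most 4.14% of the level to either side, apart from Ctsk.

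**Figure D1:**
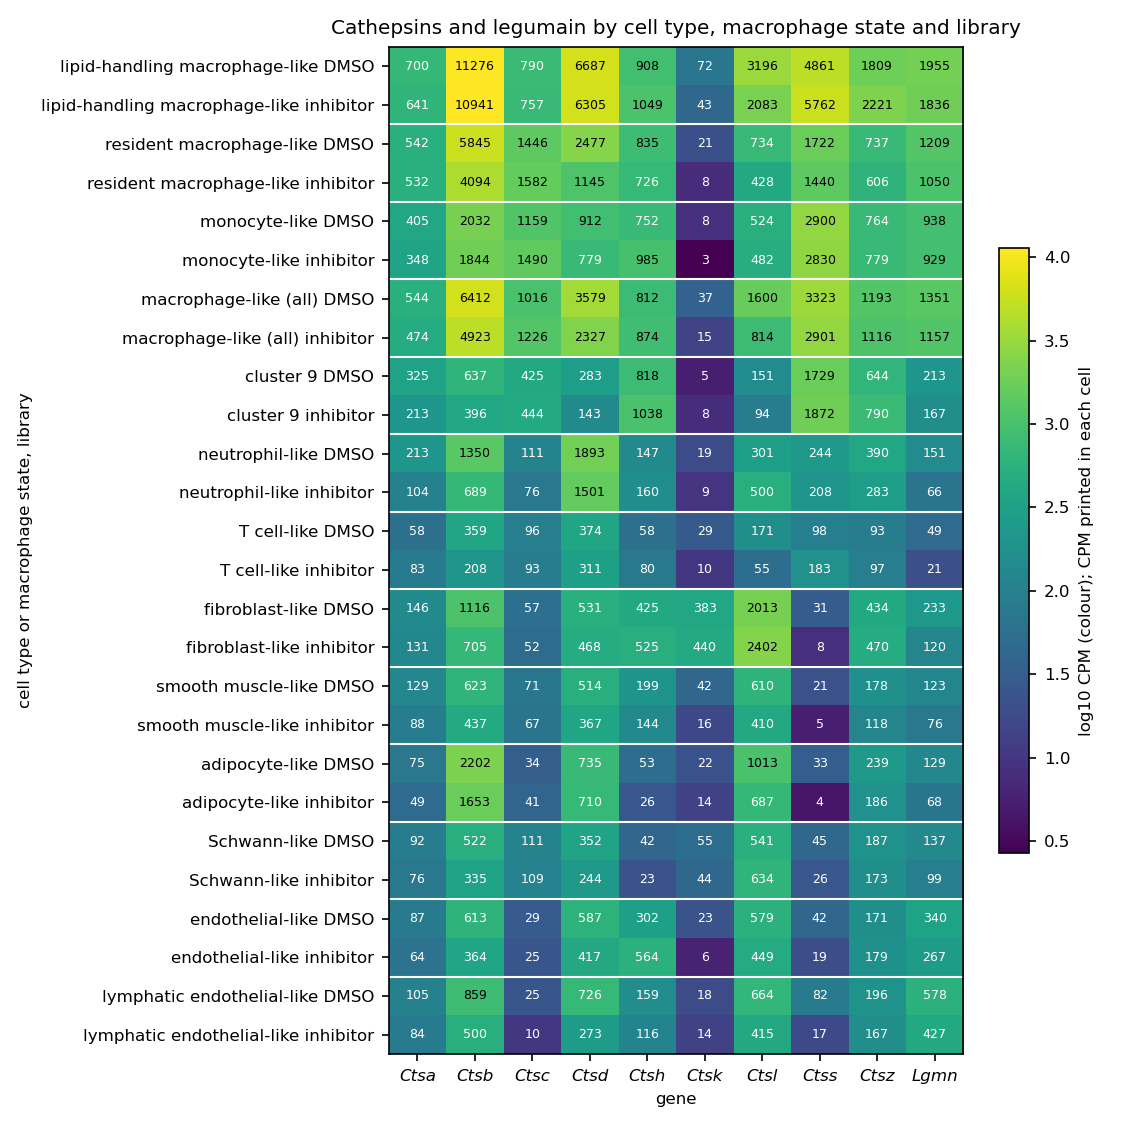
Level of each member (columns, CPM printed in each cell, colour on a log10 scale) by cell type or macrophage state and library (rows). Lipid-handling macrophage-like cells have the brightest row in both libraries, Ctsk and Ctsl are bright in fibroblast-like cells, and Ctss is dark in every class that is not a leukocyte.

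Among the endopeptidases, Ctsb stood at 6412 CPM in DMSO and 4923 CPM in inhibitor macrophage-like cells. The next class was the adipocyte-like cells, at 2202 and 1653 CPM, and the lowest were dendritic-like cells in the DMSO library (343 CPM) and T cell-like cells in the inhibitor library (208 CPM). Ctsd was at 3579 and 2327 CPM in macrophage-like cells, followed by neutrophil-like cells at 1893 and 1501 CPM. In every other named class Ctsd was between 117 and 735 CPM. Ctss was at 3323 and 2901 CPM in macrophage-like cells, against 21.4 and 5.41 CPM in smooth muscle-like cells. Its next class was the dendritic-like cells in the DMSO library, at 733 CPM. Ctsl was at 2013 and 2402 CPM in fibroblast-like cells and at 1600 and 814 CPM in macrophage-like cells. Ctsk was at 383 and 440 CPM in fibroblast-like cells, and its next class was the Schwann-like cells at 55.1 and 43.7 CPM. A Ctsk UMI was found in 90.01% and 88.1% of fibroblast-like cells and in 11.3% and 6.28% of macrophage-like cells. With every cell thinned to 2000 UMIs these shares were 48.9% and 53.0% against 3.94% and 1.61%.

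The exopeptidases and legumain were also highest in macrophage-like cells. Ctsc was at 1016 and 1226 CPM in macrophage-like cells and at or below 125 CPM in every other named class. Ctsh was at 812 and 874 CPM in macrophage-like cells, with dendritic-like cells of the DMSO library at 629 CPM and endothelial-like cells of the inhibitor library at 564 CPM behind them. Ctsz stood at 1193 and 1116 CPM, again with dendritic-like cells next in the DMSO library (559 CPM) and fibroblast-like cells next in the inhibitor library (470 CPM). Lgmn was at 1351 and 1157 CPM in macrophage-like cells and second in lymphatic endothelial-like cells, at 578 and 427 CPM. The carboxypeptidase Ctsa was at 544 and 474 CPM and lay between 49.2 and 213 CPM in the other named classes. In the lower part of each order the intervals of neighbouring classes overlapped: for Ctsa in the DMSO library each class from smooth muscle-like down to T cell-like cells overlapped the next.

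A cluster led by Cd209a, Napsa and MHC class II genes (303 DMSO and 149 inhibitor cells), which scored almost alike on macrophage and dendritic markers and was left unnamed, had its own profile. Its Ctss was at 1729 and 1872 CPM and its Ctsh at 818 and 1038 CPM, while Ctsd was at 283 and 143 CPM and Ctsl at 151 and 93.7 CPM. The Ctsh level was thus near that of macrophage-like cells, while the Ctsd and Ctsl levels were far below it.

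Ctsk and Ctss are neighbours. In GENCODE M21 (GRCm38), Ctsk spans chr3:95499256-95509362 and Ctss chr3:95526786-95556403, both on the plus strand and 17423 bases apart. Ctsd lies at chr7:142375911-142388038 and Ctsl at chr13:64359337-64370890, both on the minus strand. These are the members that passed the 1.5-fold call between the libraries in macrophage-like cells, as described further on. The 4 start regions are shown because the pair on chromosome 3 shares a locus and not a cell type, and because Ctsd and Ctsl share a direction. Each stretch runs 5′ to 3′ on the gene's strand from 250 bases before the RefSeq start to 30 bases after it (RefSeq, GRCm38.p6). The positions are chr3:95498960-95499239, plus strand; chr3:95526536-95526815, plus strand; chr7:142387798-142388077, minus strand; and chr13:64370491-64370770, minus strand. Capitals mark matches, on either strand, to CACGTG (an E-box, the core of the element bound by the lysosome regulators of the TFEB family), GAGGAAGT (a PU.1 box, for the myeloid factor PU.1) and the core of an interferon-stimulated response element (GAAA, any 2 bases, GAAA).
Ctsk: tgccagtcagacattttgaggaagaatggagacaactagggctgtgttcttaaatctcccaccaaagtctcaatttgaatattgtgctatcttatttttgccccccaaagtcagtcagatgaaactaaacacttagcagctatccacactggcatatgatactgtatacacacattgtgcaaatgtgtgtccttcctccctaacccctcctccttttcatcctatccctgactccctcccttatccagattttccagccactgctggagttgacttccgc
Ctss: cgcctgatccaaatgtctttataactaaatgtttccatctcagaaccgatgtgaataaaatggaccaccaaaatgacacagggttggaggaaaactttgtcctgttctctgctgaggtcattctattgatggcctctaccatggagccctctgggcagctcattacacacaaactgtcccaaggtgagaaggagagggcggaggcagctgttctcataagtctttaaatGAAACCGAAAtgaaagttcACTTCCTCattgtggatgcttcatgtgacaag
Ctsd: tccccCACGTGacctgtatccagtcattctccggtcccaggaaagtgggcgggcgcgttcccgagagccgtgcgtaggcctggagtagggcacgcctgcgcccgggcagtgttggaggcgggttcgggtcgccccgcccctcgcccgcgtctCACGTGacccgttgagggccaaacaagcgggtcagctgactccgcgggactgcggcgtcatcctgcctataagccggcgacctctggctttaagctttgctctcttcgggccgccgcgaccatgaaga
Ctsl: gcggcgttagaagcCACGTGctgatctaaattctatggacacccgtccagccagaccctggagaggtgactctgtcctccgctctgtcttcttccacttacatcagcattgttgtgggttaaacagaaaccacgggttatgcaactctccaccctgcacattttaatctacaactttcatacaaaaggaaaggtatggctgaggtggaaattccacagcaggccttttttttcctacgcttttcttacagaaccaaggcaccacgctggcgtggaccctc

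The Ctsd stretch holds CACGTG at 2 places, the Ctsl stretch at 1, the Ctss stretch holds the other 2 motifs, beginning 21 and 2 bases before its start, and the Ctsk stretch holds none of the 3. RefSeq and GENCODE place the starts of Ctsd and Ctsl differently. The Ctsl match and the later of the 2 Ctsd matches lie inside the GENCODE spans given above. In the RefSeq windows of 300 bases, 8 of 10 members had a window (10 windows in all), and CACGTG occurred in 4 members, in 1 window each: Ctsa, Ctsd, Ctsl and Lgmn. Ctsa and Lgmn have 2 windows each, and the other window of each lacks CACGTG. The motif occurs in 7.15% of all 32851 windows of that length. GAGGAAGT occurred in Ctss and Ctsc, against 3.20% of all windows, and the interferon element core in Ctss, against 3.44%. The motifs were picked with the sequences in view, and a match is a run of letters, not a bound site.

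Droplets can hold free RNA of other cells, so levels outside leukocytes were set beside genes that only macrophages should make. Such genes show free RNA of macrophages only. Ctsk and Ctsl were highest in fibroblast-like cells, and free RNA of fibroblasts was looked at in macrophage-like cells only. There the 8 fibroblast markers summed to 3.003% of their level in fibroblast-like cells in the DMSO and 1.42% in the inhibitor library. Ctsl there was at 1600 and 814 CPM, against 2013 and 2402 CPM in fibroblast-like cells. Ctsk was at 37.5 and 14.9 CPM, against 383 and 440 CPM. The comparison with macrophage genes cannot tell Ctsk and Ctsl levels in the remaining classes from background. Ctsk in endothelial-like cells of the inhibitor library, for example, was at 5.94 CPM on 18 UMIs. The C1q genes (C1qa, C1qb and C1qc), made by macrophages, were found in smooth muscle-like cells at 0.852% of their macrophage-like level in the DMSO library and 0.300% in the inhibitor library. Ctss there was at 0.645% and 0.187% of its own macrophage-like level. In fibroblast-like cells C1q stood at 1.20% and 0.319%, and Ctss at 0.929% and 0.284%. In all 5 classes plotted, Ctss was at or below the C1q share in both libraries, and its level there is read as background. In lymphatic endothelial-like cells, which are not plotted, Ctss was at 2.46% beside C1q at 2.44% in the DMSO library and at 0.594% beside 1.87% in the inhibitor library, where Ctsc too was below C1q, at 0.844%. The share of smooth muscle-like cells with a Ctss UMI, 27.04% in the DMSO and 6.18% in the inhibitor library, is read the same way. The other 9 members lay above the C1q share in these 5 classes of both libraries, from 2.02% for Ctsc in endothelial-like cells upward. Ctsh in Schwann-like cells of the inhibitor library was within counting error of it (2.61% against 2.60%). Other macrophage markers stood above some members. In endothelial-like cells of the DMSO library Ctsc was at 2.89%, below Cd68 (3.17%) and Mrc1 (3.18%). In Schwann-like cells of that library Ctsh was at 5.14%, below Mrc1 (5.30%). Lying above C1q therefore does not set such levels apart from free RNA. Ctsb in adipocyte-like cells was at 34.3% and 33.6% of the macrophage-like level, against C1q shares of 1.52% and 0.153%.

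**Figure D2:**
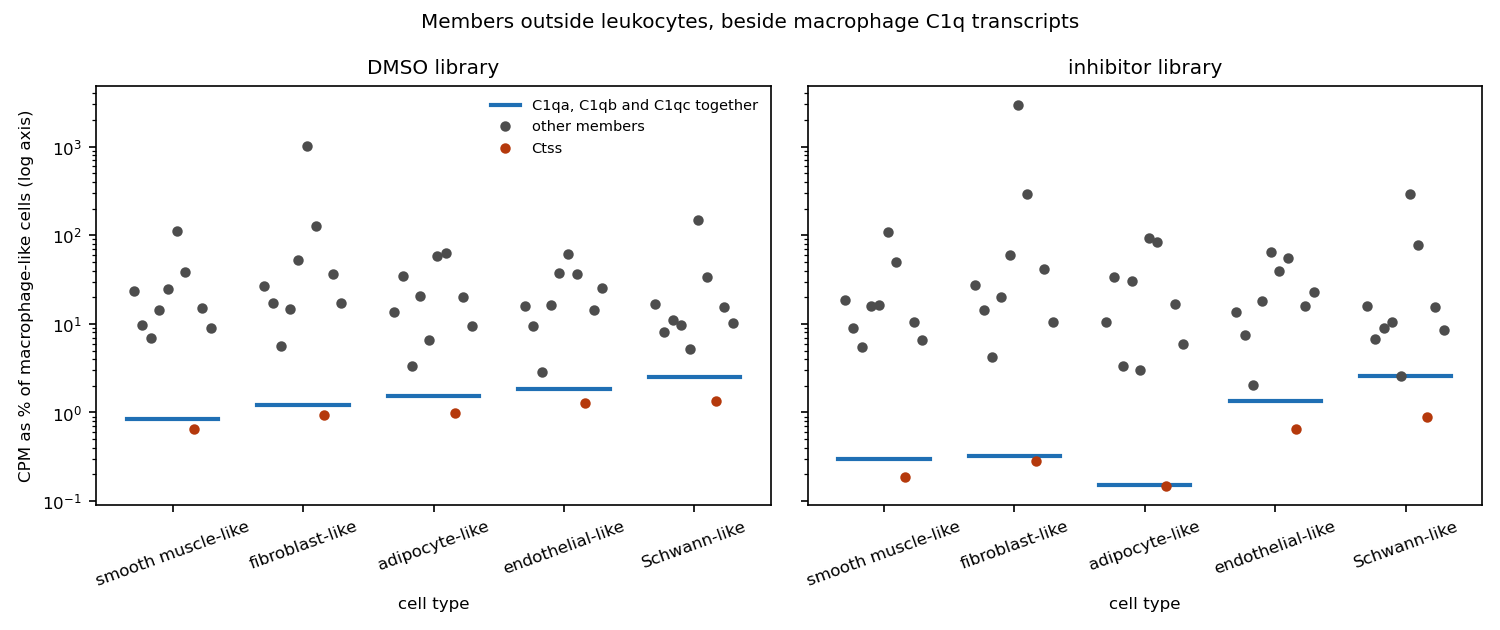
Level in 5 classes as a percent of the level in macrophage-like cells of the same library (log axis), for Ctss (red), the other 9 members in alphabetical order (dark) and the 3 C1q genes together (blue bar). Ctss lies at or under the blue bar in every class, and the other members lie above it or, for Ctsh in Schwann-like cells of the inhibitor library, on it.

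Among the compared macrophage states, the summed family level was highest in the lipid-handling state, marked by genes such as Gpnmb, Spp1 and Fabp5 (561 DMSO and 118 inhibitor cells). There the 10 members made up 3.23% and 3.16% of all UMIs. In the resident state, marked by genes such as Cd163, Folr2 and Lyve1 (599 and 361 cells), they made up 1.56% and 1.16%, and in monocyte-like cells (356 and 109 cells) 1.04% and 1.05%. Ctsb was at 11276 and 10941 CPM in lipid-handling, 5845 and 4094 CPM in resident and 2032 and 1844 CPM in monocyte-like cells. Ctsd followed the same order, at 6687 and 6305, then 2477 and 1145, then 912 and 779 CPM.

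Ctss, Ctsz and Lgmn were also highest in lipid-handling cells, but the states below differed. Ctss was at 4861 and 5762 CPM in lipid-handling cells, at 2900 and 2830 CPM in monocyte-like cells and lowest in resident cells, at 1722 and 1440 CPM. Ctsz was at 1809 and 2221 CPM in lipid-handling cells and between 606 and 779 CPM in the other compared states. Lgmn was at 1955 and 1836 CPM in lipid-handling cells, 1209 and 1050 CPM in resident cells and 938 and 929 CPM in monocyte-like cells. Ctsa and Ctsh varied least: Ctsa lay between 348 and 700 CPM and Ctsh between 726 and 1049 CPM over the 3 states.

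Ctsc ran the other way. It was at 1446 and 1582 CPM in resident cells, 1159 and 1490 CPM in monocyte-like cells and 790 and 757 CPM in lipid-handling cells. Over the 9 macrophage sub-clusters of at least 50 cells, its lowest level was 450 CPM, in sub-cluster 5, and its highest 1589 CPM, in resident sub-cluster 2. Sub-cluster 5 is the lipid-handling group led by Cd5l, Atp6v0d2 and Gpnmb (129 DMSO and 37 inhibitor cells). In the DMSO library 9 of 10 members, all but Ctsc, had their highest level of the 9 sub-clusters there. For Ctsh (967 against 961 CPM in sub-cluster 3) and Ctsa (786 against 720 CPM) the intervals overlapped. In the inhibitor library 7 of 10 did, with Lgmn higher in sub-cluster 3 (2134 against 1975 CPM) and Ctsk in sub-cluster 6 (46.8 against 43.9 CPM). The intervals of the leading sub-clusters overlapped there for Ctsh, Lgmn and Ctsk. With the libraries together, Ctsb was at 15733 CPM in sub-cluster 5, Ctsd at 10460 CPM, Ctss at 6776 CPM and Ctsl at 6231 CPM. The lipid-handling state was uneven. In its sub-cluster 6 Ctsb was at 5929 CPM, beside 5807 CPM in resident sub-cluster 0, with overlapping intervals. Ctsh was lower there than in sub-cluster 0 (714 against 829 CPM), while Ctsd (3435 against 2472 CPM) and Ctss (3542 against 1799 CPM) were higher. Depth also differed: the median cell of sub-cluster 5 had 12513 UMIs and that of resident sub-cluster 0 had 2220. It did not follow the member levels throughout. Dividing-like sub-cluster 7 had a median of 12878 UMIs, with Ctsb at 2323 CPM. Lipid-handling sub-cluster 3 had 6240 UMIs and Ctsb at 10249 CPM, and monocyte-like sub-cluster 1 had 7487 UMIs and Ctsb at 1991 CPM. CPM is relative to depth, and the part of depth in these levels was not tested beyond the thinned comparison. Dividing-like cells (57 in the DMSO library) had 8303 CPM of the 10 members together, below resident cells.

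**Figure D3:**
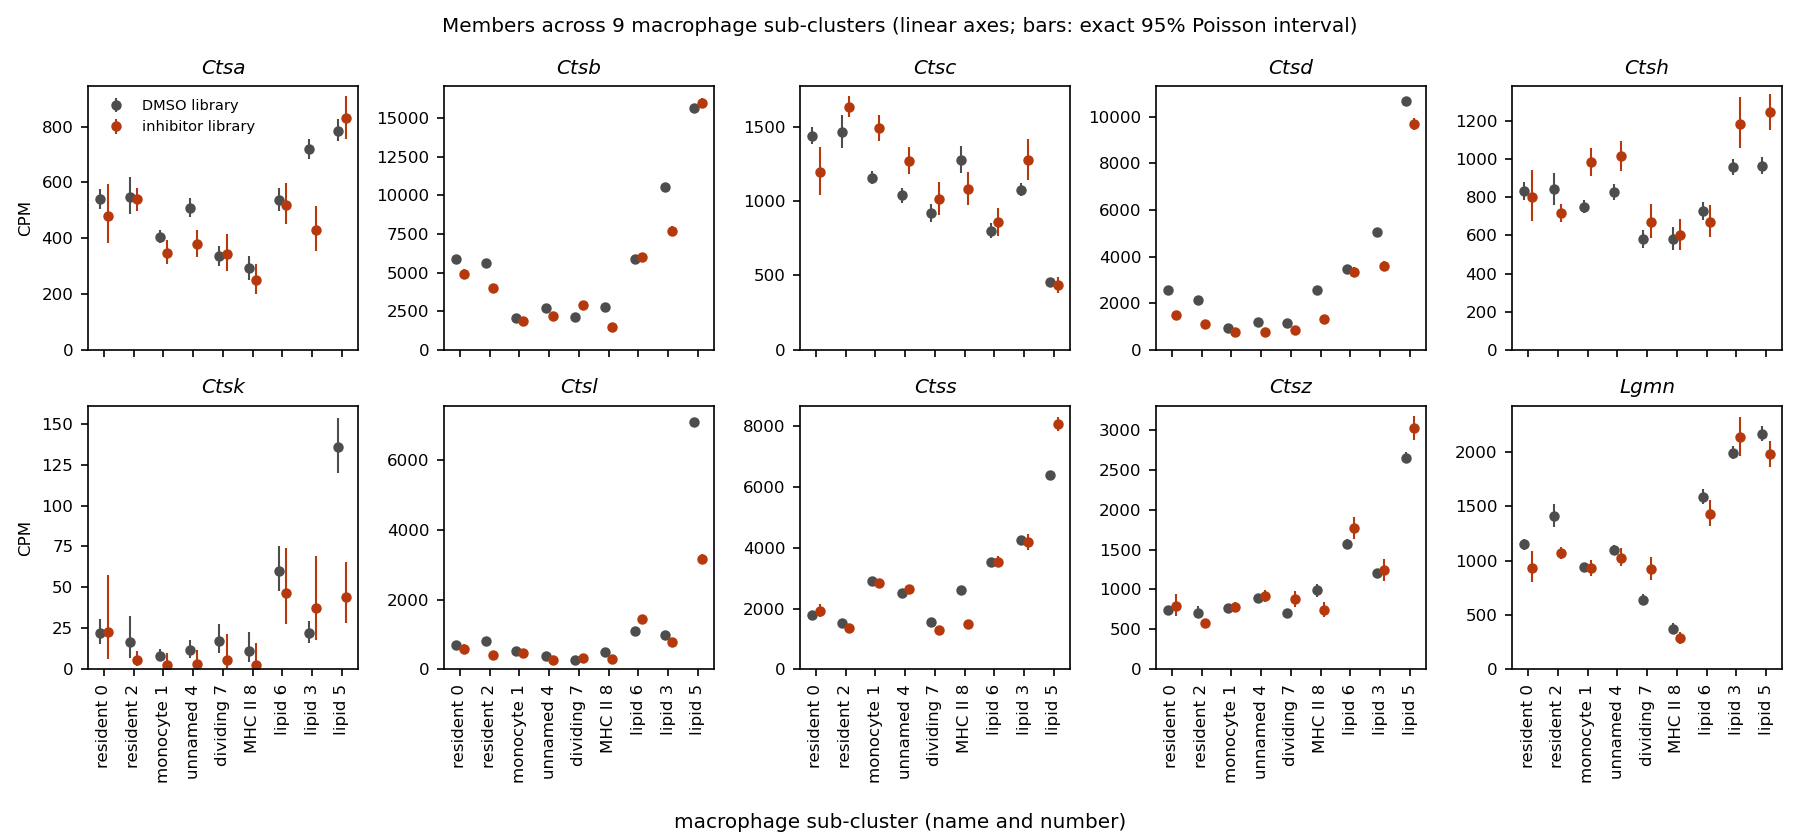
Level of each member (CPM, linear axes from 0) in 9 macrophage sub-clusters, DMSO library dark and inhibitor library red, bars showing exact 95% Poisson intervals. In the DMSO library lipid-handling sub-cluster 5 is highest for every member but Ctsc, with bars that overlap those of sub-cluster 3 for Ctsa and Ctsh. Ctsc is lowest in sub-cluster 5 in both libraries. In the inhibitor library Lgmn and Ctsk are highest in sub-clusters 3 and 6, with bars that overlap those of sub-cluster 5. The Ctsl and Ctsk points of sub-cluster 5 are well apart between the libraries.

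Ctsl in sub-cluster 5 rested on few cells. In the DMSO library the 13 cells with the most Ctsl UMIs, 1 in 10 of the sub-cluster, held 75.1% of its Ctsl UMIs and 27.3% of all its UMIs. The per-cell median was 1468 CPM in the DMSO library and 1474 CPM in the inhibitor library, while the summed levels were 7090 and 3167 CPM. Ctsb was even by comparison, its top 13 cells holding 32.0% of its UMIs.

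In fibroblast-like and smooth muscle-like cells the collagenolytic Ctsk and the broad endopeptidase Ctsl were highest in the same clusters. Clusters 2 (led by Angptl7, Fmod and Rbp4) and 6 (led by C7 and Clec3b) had the highest Ctsk, at 510 and 626 CPM with the libraries together, and the highest Ctsl, at 2606 and 3455 CPM. Cluster 10, led by Pi16 and Prg4, had Ctsk at 283 CPM and Ctsl at 1965 CPM. Cluster 3, led by Saa3 and Mmp3, had them at 416 and 1863 CPM, so its Ctsk was above that of cluster 10 and its Ctsl below. Dividing fibroblast-like cells, cluster 27, had 165 CPM of Ctsk and 998 CPM of Ctsl. Among smooth muscle-like cells, cluster 8, led by Igfbp2, Ankrd1 and Tnfrsf11b, had Ctsk at 62.4 CPM against 13.5 and 11.3 CPM in contractile clusters 0 and 5. Its Ctsl was at 734 CPM against 402 and 372 CPM.

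Endothelial-like clusters were told apart by Ctsh and Lgmn. In cluster 7, led by the capillary gene Gpihbp1, Ctsh was at 26.4 CPM and Lgmn at 78.3 CPM with the libraries together. In cluster 16, led by Cytl1 and Gja5, Ctsh was at 757 CPM and Lgmn at 509 CPM. Cluster 23, led by Ptprb, Emcn and Vwf, lay between them, at 261 and 356 CPM. Ctsb and Ctsl differed less, from 410 to 693 CPM and from 477 to 604 CPM over the 3 clusters.

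**Figure D4:**
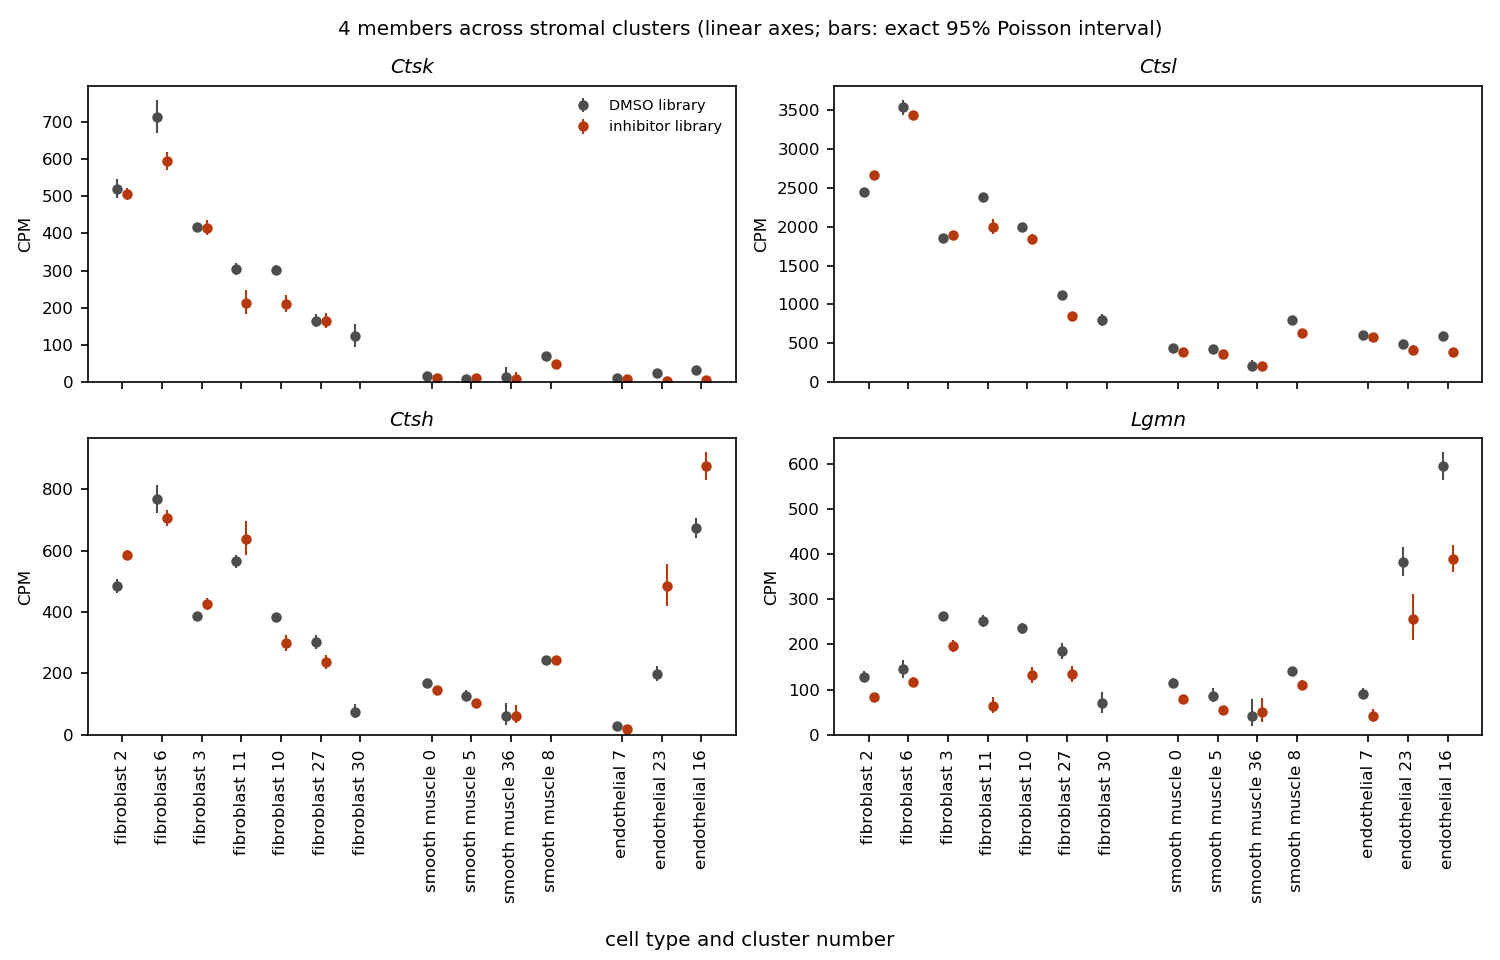
Level of Ctsk, Ctsl, Ctsh and Lgmn (CPM, linear axes from 0) in clusters of fibroblast-like, smooth muscle-like and endothelial-like cells with at least 20 cells in the library plotted, by library, bars showing exact 95% Poisson intervals. Fibroblast clusters 2 and 6 lead for Ctsk and Ctsl, smooth muscle cluster 8 stands above the other smooth muscle clusters, and endothelial cluster 16 leads for Ctsh and Lgmn among endothelial clusters.

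The libraries were compared class by class, where both had at least 100 cells of a class or 50 of a state. A gene counted as measured with at least 20 CPM in 1 library, 20 UMIs over both and 20% of its level in its highest class, and as called when the ratio of inhibitor to DMSO level was at least 1.5-fold either way with an interval that left out 1. In macrophage-like cells 9 members were measured. Ctsd and Ctsl were called lower with inhibitor, 2 of 9, and no member was called higher. Of all 5918 genes measured there, 3.04% were called lower and 2.62% higher. Ctsd was at 3579 CPM in the DMSO and 2327 CPM in the inhibitor library, a ratio of 0.65 (interval 0.637 to 0.664). Ctsl was at 1600 and 814 CPM, a ratio of 0.509 (interval 0.492 to 0.527). Its UMIs were concentrated: sub-cluster 5 held 13831 of 22253 in the DMSO and 1732 of 3888 in the inhibitor library. In the DMSO library 13 cells of that sub-cluster held 10385. Per-cell medians of Ctsl over all macrophage-like cells were 486 and 309 CPM. The Ctsd call ended when the clusters were given the same weights in both libraries (ratio 0.736) or macrophage sub-clusters were (ratio 0.793), and the Ctsl call ended when each cell counted alike (ratio 0.672). The other 7 measured members had ratios from 0.768 (Ctsb) to 1.21 (Ctsc), and the median log2 ratio of the 9 was -0.20, against 0.01 over all genes measured. Ctsk, below the minimum in macrophages, was at 37.5 and 14.9 CPM.

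**Figure D5:**
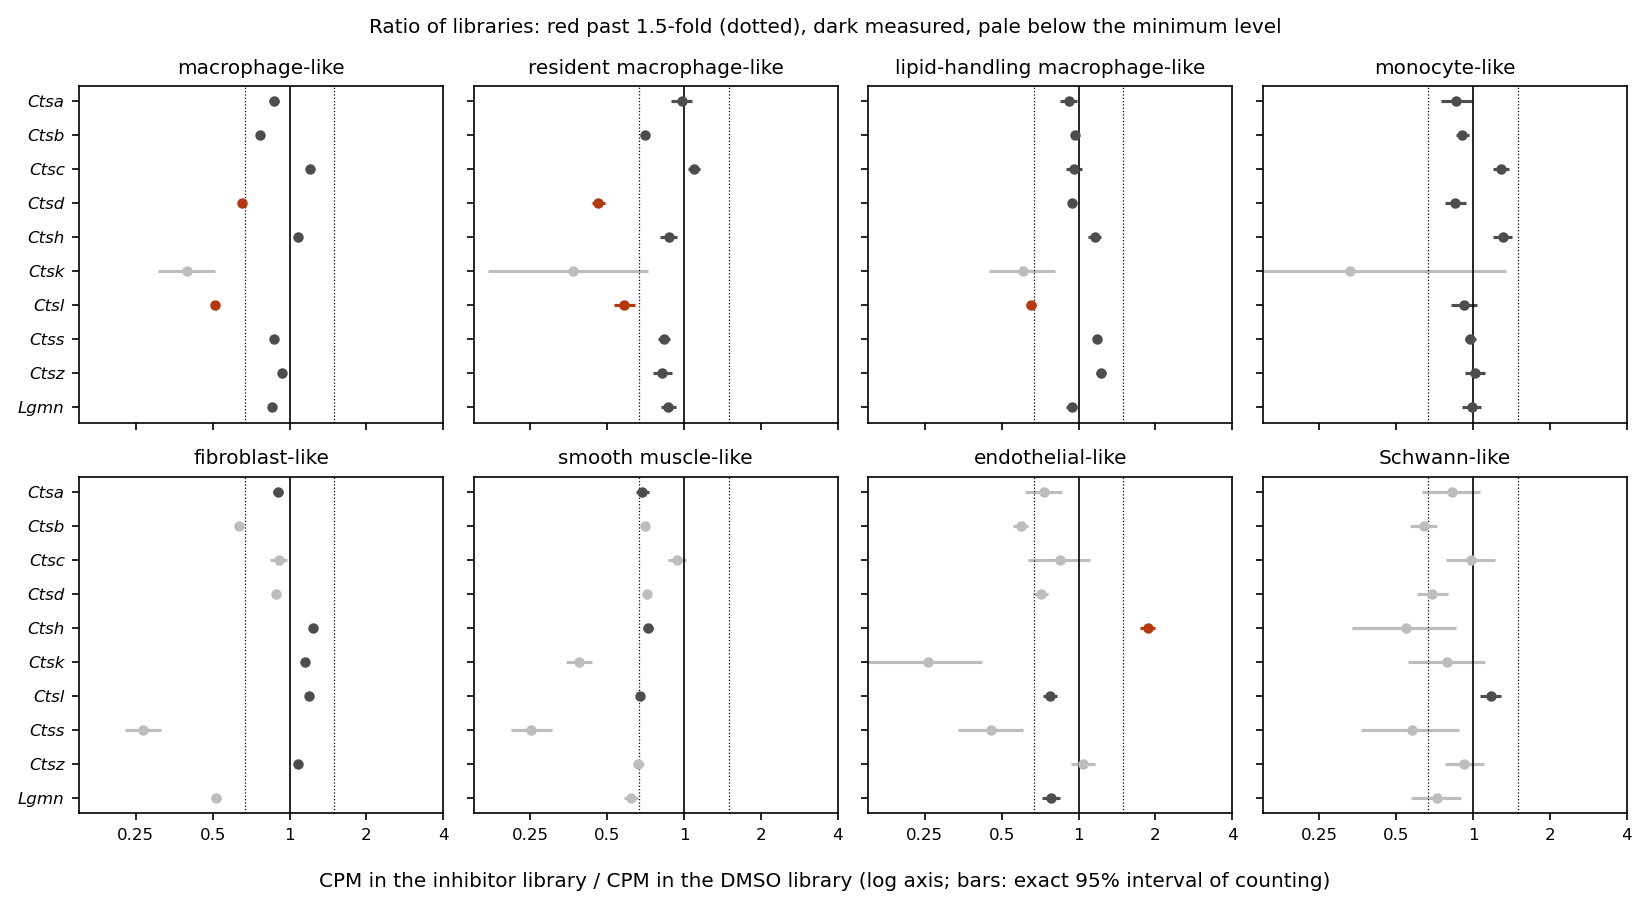
Ratio of the level in the inhibitor library to that in the DMSO library (log axis) for each member in 4 macrophage groups and 4 other classes, with exact 95% intervals of counting. Red points were called (past the dotted 1.5-fold lines), dark points were measured and not called, and pale points fell below the minimum level. Ctsd and Ctsl are red on the left of the macrophage and resident panels, Ctsl alone in the lipid-handling panel, and the intervals of Ctsk in monocyte-like and endothelial-like cells run past the left edge. Ctsh is red on the right of the endothelial panel.

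In the resident state Ctsd was at 2477 CPM in the DMSO and 1145 CPM in the inhibitor library, a ratio of 0.462 (interval 0.437 to 0.489). Ctsl was at 734 and 428 CPM, a ratio of 0.583 (interval 0.53 to 0.641). These were 2 of 9 measured members, both lower, where 5.09% of all measured genes were called lower and 7.16% higher. The difference stood in single sub-clusters for Ctsd: from 2583 to 1488 CPM in sub-cluster 0 and from 2131 to 1096 CPM in sub-cluster 2. For Ctsl the values were 713 and 598 CPM in sub-cluster 0, where the intervals overlapped, and 801 and 404 CPM in sub-cluster 2. The cells fall differently over these sub-clusters, 508 and 91 in the DMSO library and 82 and 279 in the inhibitor library. Per-cell medians also differed: for Ctsd 1487 and 635 CPM, and for Ctsl 480 and 283 CPM. Transcripts of other cell types moved with the state. The 8 fibroblast markers, none at 0, summed to 4.56% of their level in fibroblast-like cells in the DMSO and 1.87% in the inhibitor library. The 9 adipocyte markers summed to 1.57% and 0.211% of their own class, with 0 and 2 of them at 0, and the 8 smooth muscle markers, none at 0, to 1.503% and 2.06%. The median mitochondrial share of UMIs was 9.28% and 7.25%. The part of these in the ratios was not tested.

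In the lipid-handling state 1 of 9 measured members was called, Ctsl, at 3196 CPM in the DMSO and 2083 CPM in the inhibitor library, a ratio of 0.652 (interval 0.625 to 0.68). Of all measured genes there, 5.95% were called lower and 3.33% higher. The 3 sub-clusters did not move together: Ctsl was at 7090 and 3167 CPM in sub-cluster 5, 994 and 785 CPM in sub-cluster 3 and 1097 and 1439 CPM in sub-cluster 6. With each cell counting alike the ratio was 1.02, on the other side of 1, and with every cell thinned to 2000 UMIs it was 0.979. Ctsd in this state was at 6687 and 6305 CPM, a ratio of 0.943, against 0.462 in the resident state; the difference between the states has no replicate check. Ctsb, Ctsc and Lgmn had ratios from 0.939 to 0.97 here. The makeup of the state shifted: sub-clusters 3, 5 and 6 held 307, 129 and 125 cells of the DMSO library and 43, 37 and 38 of the inhibitor library. Within sub-cluster 3 the ratio was 0.709 for Ctsd (interval 0.663 to 0.758), 0.727 for Ctsb and 0.595 for Ctsa. Within sub-clusters 5 and 6 the Ctsd ratio was 0.909 and 0.971. In monocyte-like cells 0 of 9 measured members were called, where 6.82% of genes were called lower and 4.53% higher. There the ratios ran from 0.854 (Ctsd) to 1.31 (Ctsh).

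Outside macrophages few members were measured. In fibroblast-like cells 0 of 5 were called, where 6.06% of genes were called lower and 4.73% higher. Ctsk was at 383 and 440 CPM there, a ratio of 1.15, or 0.912 with the same cluster weights in both libraries. The ratio was below 1 in each of clusters 2, 3, 6, 10 and 11, from 0.699 to 0.997. The makeup shifted: clusters 2 and 6, rich in Ctsk, held 301 and 173 cells of the DMSO library and 926 and 503 of the inhibitor library. Below the minimum level and so outside the call, Lgmn was at 233 and 120 CPM and Ctsb at 1116 and 705 CPM in fibroblast-like cells. Lgmn was lower in each of these 5 clusters, most in cluster 11, led by Cxcl13, at 252 and 63.5 CPM.

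In smooth muscle-like cells 0 of 3 measured members were called, where 5.04% of genes were called lower and 3.76% higher. Ctsa, Ctsh and Ctsl had ratios of 0.686, 0.722 and 0.672, all close to the threshold. Within contractile cluster 0 Ctsl was at 444 and 394 CPM, and within cluster 8 at 796 and 639 CPM. Cluster 8 held 298 of the DMSO and 194 of the inhibitor library's cells, while cluster 0 held 322 and 2122. In endothelial-like cells 1 of 3 measured members was called: Ctsh at 302 CPM in the DMSO and 564 CPM in the inhibitor library, a ratio of 1.87 (interval 1.75 to 1.99). Of all genes measured there, 4.51% were called higher and 6.48% lower. Within clusters Ctsh was at 673 and 875 CPM in cluster 16, at 198 and 485 CPM in cluster 23 and at 29.4 and 17.5 CPM in cluster 7. With the clusters given the same weights the ratio was 1.41, below the threshold. In Schwann-like cells 0 of 1 measured members were called, where 5.71% of genes were called higher and 4.34% lower. That member, Ctsl, was at 541 and 634 CPM.

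The genes that work with the members were read from lists on lysosomal hydrolases, the proton pump, sorting, regulators, inhibitors and antigen presentation. In macrophage-like cells 17 of 17 lysosomal hydrolases and activators were measured, 2 lower and 0 higher. They were Psap, the precursor of the saposins that present lipids to hydrolases and a partner of progranulin, at 5075 and 3290 CPM, and Gla, alpha-galactosidase A, at 88.7 and 58.2 CPM. Of 13 proton pump subunits 1 was lower, Atp6v0d2, a subunit of osteoclasts and lipid-laden macrophages, at 111 and 65.6 CPM. Of 5 measured lysosome regulators 1 was lower, Flcn, which controls TFEB, at 44.0 and 26.2 CPM. No gene of the sorting list (10 measured), the other lysosomal peptidases (6), the peptidase inhibitors (3) or the antigen presentation list (6) was called in this class. The median log2 ratio was -0.25 for the hydrolases and -0.20 for the proton pump, against 0.01 over all genes. Lipid-handling cells were 561 of 1855 macrophage-like cells in the DMSO and 118 of 732 in the inhibitor library. Within that state 0 of 17 hydrolases and 0 of 13 pump subunits were called. Their median log2 ratios were -0.04 and 0.10 there, against -0.01 over all genes. The part of makeup in the ratios of the whole class was not tested.

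In the resident state Psap was at 3322 and 1738 CPM, a ratio of 0.523, beside Ctsd at 0.462. Saposins are released from Psap by cathepsin D. Of 17 hydrolases 3 were lower (Psap, Neu1 and Gla) and of 6 regulators 2 (Tfeb and Flcn). Tcirg1, a proton pump subunit, and Igf2r, which carries new lysosomal enzymes to the endosome, were also lower. Of 6 measured other lysosomal peptidases Ctsf and Ctso were higher, at 22.4 and 40.5 CPM and at 26.3 and 41.9 CPM, and Dpp7 was lower, at 38.9 and 20.9 CPM. The secreted inhibitor Cst3, cystatin C, which blocks cysteine cathepsins, was at 2540 and 3814 CPM, a ratio of 1.502. Of the serine proteases that Ctsc activates, 2 of 7 were measured in this state, the mast cell genes Mcpt4 and Cma1. They were at 27.7 and 24.8 CPM in the DMSO library, and at 0 and 0.698 CPM in the inhibitor library, where a count of 0 allows up to 2.09 CPM. Mast cells were not among the named classes, and their part in the state was not tested. In the lipid-handling state the MHC class II genes H2-Aa, H2-Ab1 and H2-Eb1 were lower, 3 of 6 of the antigen presentation list, with ratios from 0.604 to 0.639. Flcn and the sorting receptor Sort1 were lower there too. In monocyte-like cells the regulator Mitf was higher, at 23.4 and 40.5 CPM, and the pump subunit Atp6v1b2 lower, at 172 and 113 CPM.

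In fibroblast-like cells the largest difference among the related genes was Cst3, at 3941 CPM in the DMSO and 12374 CPM in the inhibitor library, a ratio of 3.14. Of the matrix proteins that cathepsins cut, Eln and Lama2 were higher (ratios 1.76 and 1.51) and Fn1 lower (0.504), 3 of 6 measured. Igf2r and Gnptab, which makes the mannose 6-phosphate tag of lysosomal enzymes, were lower, and Gnptg and Atp6ap2 higher. In smooth muscle-like cells 4 of 5 measured matrix genes were lower, Eln, Col1a1, Col1a2 and Col3a1, with ratios from 0.307 to 0.567, and so were Tfe3, Igf2r, Lamp2 and Hexa. Cluster 8, with Eln among its leading genes, held 298 of 747 such cells in the DMSO and 194 of 3074 in the inhibitor library. The part of this shift in the ratios was not tested. In endothelial-like cells Serpinb6b, an intracellular serpin, was at 158 and 369 CPM, Ctsf, Eln and Serpinb6b were higher, and Prcp, Tfe3, Neu1 and Tcirg1 were lower. In Schwann-like cells Prcp, Tfe3, Igf2r and Lama2 were lower and Atp6v0d1 higher.

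Across 37 clusters of at least 50 cells, the gene most like each member was sought among 8628 other genes by Pearson's r of log2(CPM + 5), given as a description since clusters share library and depth. Ctss was closest to Ly86 (r = 0.973), Cd68 (0.968) and Wfdc17 (0.963), and Ctsc to Clec4a1 (0.917), Clec4a2 (0.908) and Csf1r (0.907). Ctsk was closest to Bdh2 (0.928), Pdgfrl (0.902) and Tspan11 (0.888). Ctsb was closest to Pla2g15 (0.882), Hmox1 (0.863) and Grn (0.86), and Ctsd to Hmox1 (0.846), Mroh1 (0.82) and Atp6v1e1 (0.811). Ctsa was closest to Grn (0.881), Csf1r (0.87) and Ntpcr (0.859), and Ctsl to Naglu (0.866), Gaa (0.838) and Blvrb (0.835). Ctsz was closest to Creg1 (0.895), Ftl1 (0.883) and Hexa (0.87), Lgmn to Mfsd1 (0.888), Sirpa (0.824) and Grn (0.802), and Ctsh to Cxcl16 (0.853), B4galt5 (0.773) and Erp29 (0.772). Among the members, Ctsb and Ctsd had the highest r of any pair (0.879), followed by Ctsc and Ctss (0.86) and Ctsk and Ctsl (0.795). The lowest r was that of the neighbours Ctsk and Ctss (-0.32).

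Several members overlap other genes in the annotation, and the labels do not say whether counting used strand. Ctsa shares 495 exon bases with Pltp on the other strand, and Pltp had 15812 and 3964 UMIs in macrophage-like cells. Ctsl shares 1742 exon bases with the antisense gene Gm47123, which had 615 UMIs in all cells, and 395 with the pseudogene Gm49230, which had 0. Ctsd shares 808 exon bases with Gm49369 on its own strand, which had 0 UMIs, and Ctsb shares 774 with Fdft1 on the other strand. Levels of Ctsa, Ctsb, Ctsd and Ctsl are to that extent uncertain.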

How the data were processed

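Single-cell RNA was measured in 2 libraries (10x Chromium 3′ v3), 1 per group. The deposited values are whole UMI counts per gene and barcode, as Cell Ranger 6.1.1 wrote them (per the file headers), on GRCm38 per the submitters' processing notes, which also name Seurat. Group names were read from the initials in the titles, D for DMSO and IN for inhibitor. Barcodes with under 200 genes or over 20% mitochondrial UMIs were removed, and doublets were called with Scrublet in scanpy 1.11.5. The threshold it chose for DMSO cells called 0 doublets, so the one it chose for inhibitor cells (0.214) was applied throughout, removing 253 and 440 cells. Clusters came from 2000 variable genes, 30 principal components and Leiden at resolution 1, macrophages again at 0.5. The naming rule (at least 3 markers, a score 1 above the next type, 0.5 for states, at least 1000 median UMIs) was set after the clusters were seen. The members and lists were chosen with earlier results of these data known. Named genes were all members, up to 3 highest and 3 lowest of each list per class, and 3 like genes per member. With 1 library per group there is no test. The call rule was tested on simulated data: of 200 genes changed 2-fold among 5631 measured in monocyte-like cells, the lowest recovery of 8 comparisons, 88% were recovered, and at most 2.45% of unchanged genes were called in any of the 8. The simulated counts of both libraries came from the same profile and varied by counting error only. Spread between cells and shifts in makeup were left out, so these shares are not error rates of the real calls. One related gene is not reported here. Doublets, filters, weights, clustering, thresholds, scaling and thinning were varied.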

Additional observations from a re-analysis of the deposited data

How the results depend on the processing

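No paired analysis was possible because each group is 1 library. Each count was recomputed under 14 alternatives, 2 of them (leaving out cluster 14, whose median cell had 1018 UMIs, and equal weights for macrophage sub-clusters) chosen after seeing the data. Of 120 recomputed counts 102 stayed within 1.5 times of the reported count and 18 did not; the cause was not tested. At a 2-fold threshold the members called numbered 0 in macrophage-like, 1 in resident, 0 in lipid-handling and 0 in endothelial-like cells. With no minimum relative to the highest class they numbered 3 in fibroblast-like, 4 in smooth muscle-like, 4 in endothelial-like, 3 in Schwann-like and 2 in lipid-handling cells, all of them lower but Ctsh in endothelial-like cells. The added members were Ctss, read above as background, in the 4 classes outside macrophages, with Ctsb and Lgmn in fibroblast-like, Ctsk, Ctsz and Lgmn in smooth muscle-like, Ctsb and Ctsk in endothelial-like and Ctsb and Ctsh in Schwann-like cells, and Ctsk in lipid-handling cells. Ctsk was also added, as lower, in macrophage-like cells (ratio 0.397) and in resident cells (ratio 0.367). With each cell counting alike they numbered 1 in macrophage-like and 0 in lipid-handling cells. With equal weights for clusters, and with equal weights for macrophage sub-clusters, 1 member (Ctsl) was called in macrophage-like cells. At Leiden resolution 1.5, 0 were called in lipid-handling cells. With doublets kept, and with listed genes kept for clustering, 1 (Ctsl, lower) was called in smooth muscle-like cells. Thinned to 2000 UMIs, 1 (Ctsa, lower) was called in smooth muscle-like and 0 in lipid-handling cells. One called ratio crossed 1: Ctsl in lipid-handling cells, 1.02 with each cell counting alike. Over their alternatives the Ctsd ratio stayed between 0.617 and 0.793 in macrophage-like and between 0.406 and 0.548 in resident cells. The Ctsl ratio stayed between 0.489 and 0.672 in macrophage-like and between 0.53 and 0.662 in resident cells, and the Ctsh ratio in endothelial-like cells between 1.41 and 2.12. Monocyte-like cells could not be compared with doublets kept, at Leiden resolution 0.5 or with listed genes kept for clustering, and no library could be left out. Of 8 members highest in macrophage-like cells, 8 were so under each alternative run but 1, doublets kept, with 7 in the inhibitor library.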

Other observations

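The Ctsl-rich cells of macrophage sub-cluster 5 were looked at after their values were seen, with no test. In the DMSO library the 13 cells with the most Ctsl UMIs (295 to 2209 each) had Ctsl at 19497 CPM, against 2430 CPM in the other 116 cells. In the richest cell Ctsl was 2.38% of all UMIs. Ctsk, the other collagen-cutting cysteine cathepsin, was at 345 CPM in them and 57.1 CPM in the rest, Ctsd at 13639 and 9560 CPM, and Ctsz at 3456 and 2348 CPM. Ctss, Ctsa and Ctsh were not above the rest, and Ctsc was at 285 against 518 CPM. Mfge8, a bridge for the uptake of dying cells, was at 2180 against 83.2 CPM, Cd5l at 3888 against 927 CPM, Gpnmb at 10190 against 3830 CPM and the cell cycle inhibitor Cdkn1c at 306 against 7.76 CPM. The fibroblast gene Col1a1 was at 90.1 against 121 CPM and the smooth muscle gene Acta2 at 28.2 against 85.3 CPM. Depth moved with the choice: the median cell had 31805 UMIs against 10911 in the rest, as cells were ranked by UMIs. In the inhibitor library the 4 richest of 37 cells had Ctsl at 8104 against 1818 CPM and Mfge8 at 818 against 172 CPM, while Ctsk was at 25.6 against 48.9 CPM on 3 UMIs. The Ctsl contrast follows from the ranking in both libraries. Cdkn1c (179 against 16.3 CPM, on 21 and 7 UMIs) and Cd5l (622 against 382 CPM) went the same way as in the DMSO library. Ctsd (8079 against 10140.0 CPM), Ctsz (2855 against 3063 CPM) and Acta2 (349 against 216 CPM) went the other way, and Gpnmb was at 6596 against 6395 CPM.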
